A study of Homo sapiens with 30 samples.

Results

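The comparison described here is the knockdown of MYEOV in PANC-1, an established human cell line of pancreatic ductal adenocarcinoma (PDAC) in which MYEOV is well expressed. Its members are the 6 RNA-seq libraries that the labels assign to PANC-1 with siMYEOV or with siControl, 3 of each, out of 30 libraries in the series. The siMYEOV group received a small interfering RNA (siRNA) against MYEOV and the siControl group a control siRNA, and no other treatment is given in the labels for either group. The series also holds 9 PANC-1 libraries with siDDX60L, siKCNN4 or siS100A16 and 15 MiaPaCa2 libraries with the same 5 siRNAs, and these are used below where the siMYEOV effect is set against another line or another siRNA. In the study, MYEOV served as positive control beside DDX60L and was itself among the candidate oncogenes, and the comparison asks which transcripts change when it is lowered. PANC-1 is 1 line, and the labels do not say whether replicates came from separate transfections, so the p-values below cover only how much these libraries vary. Labels of the libraries do not name the siRNA oligonucleotide. The study designed 3 against MYEOV and states that it went on with siMYEOV-3, so a response to MYEOV loss and a response to this oligonucleotide cannot be told apart within PANC-1.

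MYEOV (myeloma overexpressed) lies at 11q13 next to CCND1 and was first described as a gene overexpressed in myeloma. An siRNA is loaded into Argonaute, whose guide strand pairs with a matching messenger RNA (mRNA) and leads to its cleavage. The guide can also lower other mRNAs through its seed, the bases near its 5′ end, much as a microRNA does. NF-kB, to which many of the genes below respond, is a family of transcription factors held in the cytoplasm by inhibitors such as IκBα. It is released after signals such as tumor necrosis factor (TNF) and then activates genes for chemokines, cytokines, survival factors and its own inhibitors.

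The siMYEOV-3 sequences are shown because the seed is used below. The target sequence lies in GRCh37 at chr11:69064185-69064203 on the plus strand, in the 3′ UTR and in exon 2 of 2 of the longest coding transcript of MYEOV (chr11:69061605-69182494, plus strand). It began 326 bases after the stop codon, in a UTR of 895 bases. Capitals mark guide bases 2 to 8 (the seed) and, in the target, the 7 bases that pair with them.
siMYEOV-3 target (mRNA sense, written as DNA): ggaggacacgcAAGTTCAg
siMYEOV-3 guide (written as DNA): cTGAACTTgcgtgtcctcc

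MYEOV mRNA was lower in every siMYEOV library than in every siControl library of PANC-1. Expression is given as FPKM, a fragment count divided by transcript length and library size. MYEOV measured 23.2, 23.4 and 24.97 FPKM in the siControl libraries and 9.14, 10.7 and 9.99 FPKM in the siMYEOV libraries. On the log2(FPKM + 1) scale used for all fold changes, the difference was -1.19 ± 0.064 (SE, n = 3 and 3), with an adjusted p of 7.9e-09 by limma. The siMYEOV mean was 41.6% of the siControl mean. MYEOV also stood below siControl with siDDX60L (13.5 to 15.6 FPKM) and with siKCNN4 (14.4 to 15.8 FPKM), and above it with siS100A16 (47.2 to 49.4 FPKM), as the plot of MYEOV in every library shows. In MiaPaCa2, siControl libraries held 0.691 to 0.985 FPKM and siMYEOV libraries 0.155 to 0.190 FPKM. The other genes targeted in the series were not called after siMYEOV. DDX60L changed by -0.15 ± 0.12, KCNN4 by 0.05 ± 0.13 and S100A16 by 0.31 ± 0.074 on the log2 scale, with adjusted p values of 0.32, 0.78 and 0.0028. The siMYEOV and siControl values overlapped for DDX60L and KCNN4. For S100A16, all 3 siMYEOV libraries (49.2, 47.8 and 47.6 FPKM) lay above the siControl libraries (39.6, 39.7 and 36.7 FPKM), with a change below the threshold of 0.5.

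**Figure D1:**
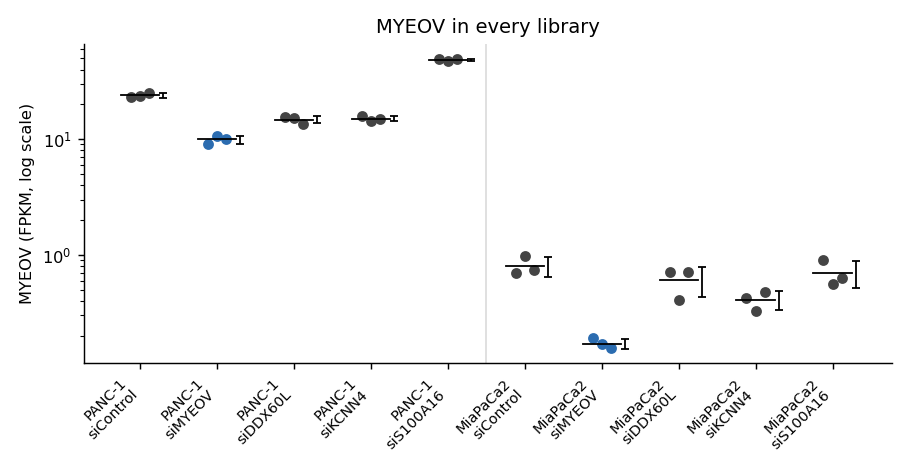
MYEOV in FPKM on a log axis in each of the 30 libraries, by line and siRNA; points are libraries, horizontal lines group means and bars the SD of 3 libraries. In PANC-1 the 3 siMYEOV libraries lie at 9.14, 10.7 and 9.99 FPKM, below all siControl libraries and below those of the other siRNAs, and all MiaPaCa2 libraries lie below 1 FPKM.

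The 6 libraries had close totals that still separated the groups. FPKM values summed to 386211 to 390253 in the siControl and 396173 to 403968 in the siMYEOV libraries, and 12354 to 12467 against 12120 to 12143 genes exceeded 1 FPKM, with no overlap between the groups in either measure. Mitochondrial transcripts took 13.6 to 14.2% of the FPKM total in siControl and 12.7 to 13.5% in siMYEOV. Pairs of replicates had a Pearson r of 0.984 to 0.987 across genes, which are not independent replicates. Of 12 genes chosen as markers of pancreatic ductal cells, 8 passed the filter. Of these, 4 fell (KRT18, KRT8, KRT7 and CA2, 50% against 15.1% of all genes) and none rose. Of the 8, 2 averaged under 1 FPKM with siMYEOV and passed the filter through other groups. The list summed to 3193 to 3444 FPKM in siControl and 1061 to 1201 FPKM in siMYEOV. Of 14 acinar and islet markers none passed the filter, and their summed level was 0.131 to 0.710 FPKM in the 6 libraries. Leukocyte markers summed to 44.7 to 47.9 FPKM in siControl and 51.7 to 56.4 FPKM in siMYEOV, with 2 of 12 tested (CD74 fell and CD68 rose), and the leukocyte-defining PTPRC, CD3D and CD14 were below the filter. Of 11 fibroblast and stellate cell markers 3 were tested and 1 fell, and the list summed to 10.8 to 12.6 FPKM in siControl and 7.61 to 8.35 FPKM in siMYEOV. Of 8 endothelial markers 1 was tested and was not called, and the list summed to 19.3 to 25.7 and 13.8 to 17.4 FPKM.

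After siMYEOV, 1792 of 12513 genes tested were higher (14.3%) and 1886 were lower (15.1%) than with siControl, so 29.4% of genes were called. A call needed an adjusted p below 0.05 by limma and an absolute log2 change of at least 0.5. At a change of at least 2-fold on the log2(FPKM + 1) scale, the falls outnumbered the rises, with 540 genes lower and 258 higher. The median change over all genes was 0.04. Irrespective of size, all 3 siMYEOV libraries lay above all 3 siControl libraries for 34.9% of genes and below them for 30.9%. Falls were more frequent than rises among genes of low level (19.2% against 10.9% at a mean of 1 to 5 FPKM) and less frequent among those at 20 to 100 FPKM (11.1% against 18.6%). With genes of at least 5 FPKM on average only, 1406 of 8969 were higher and 1218 lower.

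**Figure D2:**
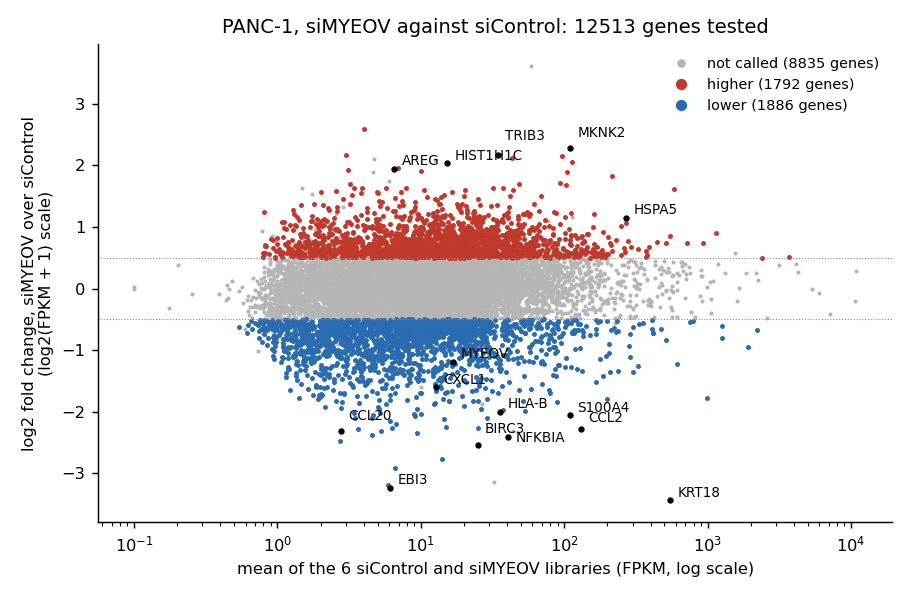
Log2 fold change of siMYEOV over siControl in PANC-1 against the mean of the 6 libraries in FPKM (log axis, means below 0.1 drawn at 0.1), 1 point per gene tested; dotted lines mark changes of 0.5. Red points are the 1792 genes called higher and blue points the 1886 called lower, and the named genes include KRT18 at -3.44 and MKNK2 at 2.29.

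KRT18 had the largest fall of the genes tested. It encodes keratin 18, an intermediate filament protein of simple epithelia, at chr12:53342655-53346690, plus strand in GRCh37. KRT18 measured 1023, 1017 and 985 FPKM in the siControl libraries and 91.6, 95.3 and 89.3 FPKM in the siMYEOV libraries. The groups were far apart, and the log2 change was -3.44 ± 0.040 (adjusted p = 1.2e-14). KRT8, which encodes the partner of keratin 18 in the filament, measured 1522, 1636 and 1454 FPKM in the siControl libraries and 515, 415 and 417 FPKM in the siMYEOV libraries. Its log2 change was -1.78 ± 0.11 (adjusted p = 2.5e-08), smaller than that of KRT18 and again without overlap. KRT7 changed by -1.06 ± 0.16 and CDH1, the gene of E-cadherin, by -1.15 ± 0.076. Among 25 tested epithelial keratin and junction genes, 8 fell and 1 rose (32% and 4%, against 15.1% and 14.3% of all genes). Without siMYEOV replicate 1 or siControl replicate 2, 2 rose. The median was -0.11 against 0.04 over all genes, and 16 members were not called. Against the same siControl libraries, 9 of the 25 were lower and 4 higher with siKCNN4 (median -0.26). The counts were 6 and none with siDDX60L, and 5 and 6 with siS100A16. Of all genes, 12.9%, 7.34% and 8.94% were lower with siKCNN4, siDDX60L and siS100A16. CA2, a carbonic anhydrase of ductal cells, changed by -0.88 ± 0.11.

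The genes of the TNF and NF-kB response fell together. Of 36 genes in the list, 29 passed the filter, 23 of them fell (79.3%, against 15.1% of all genes) and none rose. The median log2 change of the 29 was -1.61, against 0.04 over all genes. In 27 of the 29, all 3 siMYEOV libraries lay below all 3 siControl libraries, against 30.9% of all genes. Of the 29, 3 averaged under 1 FPKM with siMYEOV and passed the filter through other groups. Lower expression of TNF and NF-kB pathway genes, CXCL1, CXCL2 and CXCL3 among them, is described in the study from the same libraries, so the direction of the list is not independent evidence. The plot of TNF and NF-kB response genes gives every member in each library.

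NFKBIA and BIRC3, both induced by NF-kB, were among the members that fell. NFKBIA, the gene of IκBα, measured 70.3, 70.98 and 67.1 FPKM in the siControl libraries and 12.4, 12.8 and 11.7 FPKM in the siMYEOV libraries. Its log2 change was -2.41 ± 0.059 (adjusted p = 1.2e-11). BIRC3 encodes cIAP2, a ubiquitin ligase that restrains cell death downstream of TNF receptors, and measured 44.8, 40.9 and 43.8 FPKM in the siControl libraries and 6.18, 7.18 and 6.36 FPKM in the siMYEOV libraries. Its change was -2.55 ± 0.059 (adjusted p = 8.0e-12), and neither gene had overlapping groups.

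Genes of secreted proteins were also among the members that fell. EBI3, a subunit of the cytokines IL-27 and IL-35, measured 11.9, 12.1 and 11.5 FPKM in the siControl libraries and 0.134, 0.635 and 0.362 FPKM in the siMYEOV libraries. Its log2 change was -3.24 ± 0.14 (adjusted p = 1.5e-09). CCL2, which attracts monocytes, measured 214, 226 and 215 FPKM in the siControl libraries and 44.9, 45.6 and 41.4 FPKM in the siMYEOV libraries. This most abundant of the chemokines named here changed by -2.29 ± 0.048 (adjusted p = 6.5e-12). CCL20, the ligand of CCR6, measured 4.96, 6.05 and 4.78 FPKM in the siControl libraries and 0, 0.534 and 0.305 FPKM in the siMYEOV libraries, a change of -2.31 ± 0.15 (adjusted p = 3.4e-08).

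CXCL1, CXCL2 and CXCL3 are ligands of CXCR2 and attract neutrophils. CXCL1 measured 19.1, 20.7 and 19.7 FPKM in the siControl libraries and 5.66, 5.52 and 6.37 FPKM in the siMYEOV libraries, a log2 change of -1.61 ± 0.061 (adjusted p = 4.5e-10). CXCL2 measured 4.53, 4.94 and 4.59 FPKM in the siControl libraries and 0.698, 0.722 and 0.817 FPKM in the siMYEOV libraries, a change of -1.70 ± 0.11 (adjusted p = 2.9e-08). CXCL3 averaged under 1 FPKM over the PANC-1 libraries and was not tested. Its values were 1.28, 1.16 and 0.995 FPKM in the siControl libraries and 0.0461, 0.281 and 0.407 FPKM in the siMYEOV libraries, without overlap. The log2(FPKM + 1) scale understates changes at such levels.

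Further members in the list included SOD2, the mitochondrial superoxide dismutase, which changed by -2.27 ± 0.14, and IER3, an immediate early gene, which changed by -1.28 ± 0.053. The other 14 members that fell had log2 changes between -1.98 and -0.60. The 6 tested members that were not called, named here after their values had been seen, were BCL3, CFLAR, LIF, NFKB1, TNFAIP8 and TRAF1, with changes between -0.48 and 0.17. IL32, a cytokine gene outside the list, measured 11.6, 9.27 and 12.6 FPKM in the siControl libraries and 1.55, 1.05 and 2.01 FPKM in the siMYEOV libraries and changed by -2.27 ± 0.17.

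**Figure D3:**
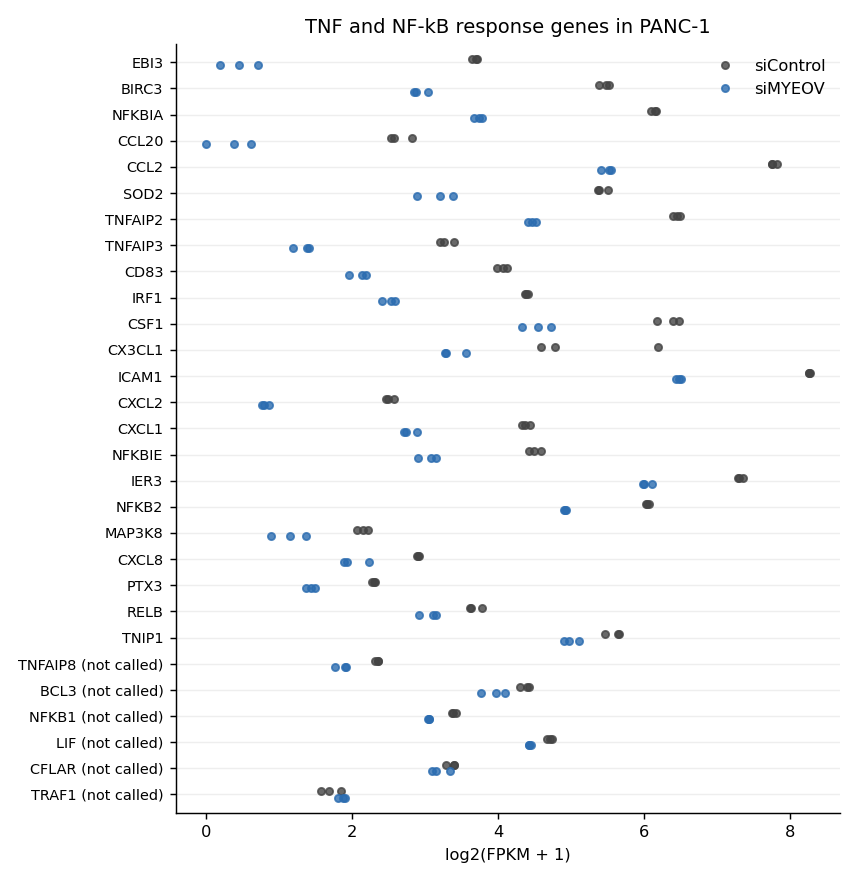
The 29 tested genes of the TNF and NF-kB response list in PANC-1 as log2(FPKM + 1), with 1 point per library, siControl in grey and siMYEOV in blue, ordered by fold change. The siMYEOV points lie left of the siControl points without overlap for 27 genes, and 6 genes are marked as not called.

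The mRNAs of the proteins that carry the signal to NF-kB did not move as those of the response genes did. Of 29 tested genes for receptors, adaptors, kinases and other signalling proteins, 5 fell and 5 rose (17.2% each, against 15.1% and 14.3% of all genes), with a median of -0.15. The 5 rises, named here after their values had been seen, were CASP8, CHUK, RBCK1, TRADD and TRAF6, with changes between 0.50 and 0.79. TNFRSF1B, the gene of TNF receptor 2, measured 26.3, 26.2 and 24.6 FPKM in the siControl libraries and 7.62, 7.14 and 7.58 FPKM in the siMYEOV libraries, a change of -1.66 ± 0.054 (adjusted p = 1.4e-10). MAP3K14, the kinase that starts the non-canonical branch, changed by -1.39 ± 0.046. CYLD, a deubiquitinase that restrains the pathway, changed by -0.99 ± 0.15. MYD88, the adaptor of Toll-like and IL-1 receptors, changed by -1.04 ± 0.33 (adjusted p = 0.015). Its call depended on single libraries, since the adjusted p was 0.056 without siMYEOV replicate 2, 0.060 without siControl replicate 1 and 0.054 without siControl replicate 3.

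Promoter sequence is shown for some of the members that fell, as a description of the letters present. The RefSeq promoter table (GRCh38.p14) was searched on both strands for the kappa-B consensus in the 250 bases before each start, and 9.57% of its 27305 promoters held a match. Among the 9302 tested genes matched to a promoter, the share was 12%. Of the 29 tested members, 22 matched an entry, which is under 80%, so the share of the list with a match is void as a check and is not given. The windows below run 5′ to 3′ along the gene, with the matching bases in capitals.
CXCL1, chr4:73869304-73869333, plus strand: ctggaactccGGGAATTTCCctggcccggg
CXCL2, chr4:74099254-74099283, minus strand: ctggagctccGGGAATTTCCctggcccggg
NFKBIA, chr14:35404811-35404840, minus strand: tgactggcttGGAAATTCCCcgagcctgac
BIRC3, chr11:102317275-102317304, plus strand: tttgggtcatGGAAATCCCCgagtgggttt
NFKB1 and CFLAR, members that were not called, held a match as well. A match is not evidence that a factor binds there, and occupancy was not measured.

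Of 20 tested genes of MHC class I and antigen processing, 11 fell (55.0%, against 15.1% of all genes), 2 rose and 7 were not called (median -0.52), the rises being 1 without siMYEOV replicate 1 or 2 or without siControl replicate 2 or 3. HLA-F, a non-classical class I gene, measured 11.3, 14.3 and 12.03 FPKM in the siControl libraries and 0.935, 0.856 and 0.574 FPKM in the siMYEOV libraries, a change of -2.92 ± 0.16 (adjusted p = 1.0e-08). HLA-B, a classical class I gene, measured 57.3, 61.04 and 55.7 FPKM in the siControl libraries and 12.4, 14.6 and 14.1 FPKM in the siMYEOV libraries, a change of -2.003 ± 0.081 (adjusted p = 7.2e-10). HLA genes resemble each other closely, and how the authors' counting divided shared reads is not given in the sources used here, so the split between them is uncertain. ERAP1, which trims peptides for class I molecules, changed by -1.47 ± 0.12, and PSMB9, a subunit of the immunoproteasome, by -1.46 ± 0.11. The other 7 members that fell had changes between -1.02 and -0.51. With siDDX60L, 5 of the 20 were also lower and 1 higher than with siControl, where 7.34% of all genes were lower. The counts were 5 and 2 with siKCNN4, and 5 and 1 with siS100A16 (12.9% and 8.94% of all genes lower).

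Of 30 tested interferon-stimulated genes, 15 fell (50%, against 15.1% of all genes), 1 rose and 14 were not called (median -0.53). Of the 30, 3 averaged under 1 FPKM with siMYEOV and passed the filter through other groups. OAS3, a synthase of 2-5A, measured 15.4, 15.2 and 16.7 FPKM in the siControl libraries and 4.20, 4.19 and 4.19 FPKM in the siMYEOV libraries, a change of -1.69 ± 0.048 (adjusted p = 4.4e-11). UBE2L6, the E2 enzyme of ISG15 conjugation, changed by -1.36 ± 0.065, PARP14 by -1.35 ± 0.046 and IFIH1, a sensor of double-stranded RNA, by -1.01 ± 0.099. The remaining 11 members that fell ranged from -0.93 to -0.56. With siS100A16, 10 of the 30 were also lower and 1 higher than with siControl, where 8.94% of all genes were lower. The counts were 6 and 2 with siDDX60L, and 1 and 6 with siKCNN4 (7.34% and 12.9% of all genes lower). CD74, the invariant chain of MHC class II, measured 7.97, 8.26 and 8.59 FPKM in the siControl libraries and 0.626, 1.44 and 0.428 FPKM in the siMYEOV libraries, a change of -2.38 ± 0.15 (adjusted p = 3.9e-08). Among 12 tested ligands of NKG2D and immune checkpoints, 4 fell (33.3%) and none rose, all of the falls NKG2D ligands. Of the 12, 3 averaged under 1 FPKM with siMYEOV and passed the filter through other groups, so the count is a description and no support. MICB measured 101, 101 and 101 FPKM in the siControl libraries and 42.03, 42.4 and 42.98 FPKM in the siMYEOV libraries, a change of -1.23 ± 0.039. RAET1G changed by -1.18 ± 0.14, ULBP2 by -1.12 ± 0.18 and ULBP3 by -0.91 ± 0.15. RAET1G averaged 2.56 FPKM with siControl and 0.567 FPKM with siMYEOV, and ULBP2 2.00 and 0.355 FPKM. Among the 12 ligands, 7 were lower and none higher with siS100A16 than with siControl (median -0.52), where 8.94% of all genes were lower. The counts were 2 and none with siDDX60L, and 1 and 3 with siKCNN4 (7.34% and 12.9% of all genes lower).

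Of 22 tested integrin and adhesion genes, 11 fell and 3 rose (50% and 13.6%, against 15.1% and 14.3% of all genes, median -0.47). ITGAV, the integrin alpha-V subunit, measured 88.1, 87.1 and 90.6 FPKM in the siControl libraries and 27.9, 28.02 and 27.9 FPKM in the siMYEOV libraries, a change of -1.63 ± 0.049 (adjusted p = 9.0e-11). ITGB5, a beta partner of alpha-V, measured 119.8, 120.2 and 118 FPKM in the siControl libraries and 36.4, 35.8 and 40.4 FPKM in the siMYEOV libraries, a change of -1.65 ± 0.079. ITGB4, the laminin-binding beta-4 subunit of hemidesmosomes, changed by -1.69 ± 0.097, and BCAM, a laminin receptor, by -1.68 ± 0.19. In the siDDX60L libraries 8 of the 22 were lower and 1 higher than with siControl (median -0.44), where 7.34% of all genes were lower. The counts were 3 and 6 with siKCNN4, and 5 and 3 with siS100A16 (12.9% and 8.94% of all genes lower).

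In the urokinase, protease and matrix list, 9 of 21 fell (42.9%, against 15.1% of all genes) and 1 rose (median -0.47). Of the 21, 3 averaged under 1 FPKM with siMYEOV and 2 with siControl, and these passed the filter through other groups. PLAU, the gene of urokinase, measured 240.4, 251 and 238 FPKM in the siControl libraries and 114, 112 and 104 FPKM in the siMYEOV libraries, a change of -1.14 ± 0.061 (adjusted p = 7.8e-09). PLAUR, its receptor, changed by -1.50 ± 0.075. The urokinase and its receptor thus both measured lower. In this list, 9 of 21 were also lower and 1 higher with siDDX60L than with siControl, where 7.34% of all genes were lower. The counts were 1 and 8 with siKCNN4, and 3 and 4 with siS100A16 (12.9% and 8.94% of all genes lower).

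Of 16 tested mesenchymal genes, 8 fell (50%, against 15.1% of all genes), 1 rose and 7 were not called (median -0.60). Without siMYEOV replicate 1, 9 fell. Against the same siControl libraries, 6 of the 16 were lower and 1 higher with siDDX60L, where 7.34% of all genes were lower. The counts were 5 and 2 with siKCNN4, and 4 and 1 with siS100A16 (12.9% and 8.94% of all genes lower). The list summed to 3105, 3108 and 3204 FPKM in the siControl libraries and to 2402, 1317 and 1336 FPKM in the siMYEOV libraries, so siMYEOV replicate 1 stood above the other siMYEOV libraries. S100A4, a calcium-binding protein linked to motility, measured 169.7, 182 and 182 FPKM in the siControl libraries and 38.8, 42.9 and 44.5 FPKM in the siMYEOV libraries, a change of -2.06 ± 0.071 (adjusted p = 1.9e-10). AXL, a receptor tyrosine kinase, changed by -1.65 ± 0.079, LOXL2, a lysyl oxidase, by -1.42 ± 0.071 and FOXC2, a transcription factor, by -1.003 ± 0.18. Falls of CDH1 and KRT18 stood beside these, so lower levels were seen on both the epithelial and the mesenchymal list. Of 23 targets of YAP and TEAD, 11 fell (47.8%) and 1 rose (median -0.50). NUAK2, a kinase, changed by -1.95 ± 0.11 and CTGF, a matricellular protein, by -1.19 ± 0.054. IGFBP3, which binds insulin-like growth factors, was the exception with 1.12 ± 0.083. With siDDX60L, 12 of the 23 YAP and TEAD targets were lower and 2 higher than with siControl (median -0.52). The counts were 12 and 5 with siKCNN4 (median -0.50), and 3 and 9 with siS100A16. Of all genes, 7.34%, 12.9% and 8.94% were lower with these 3 siRNAs.

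**Figure D4:**
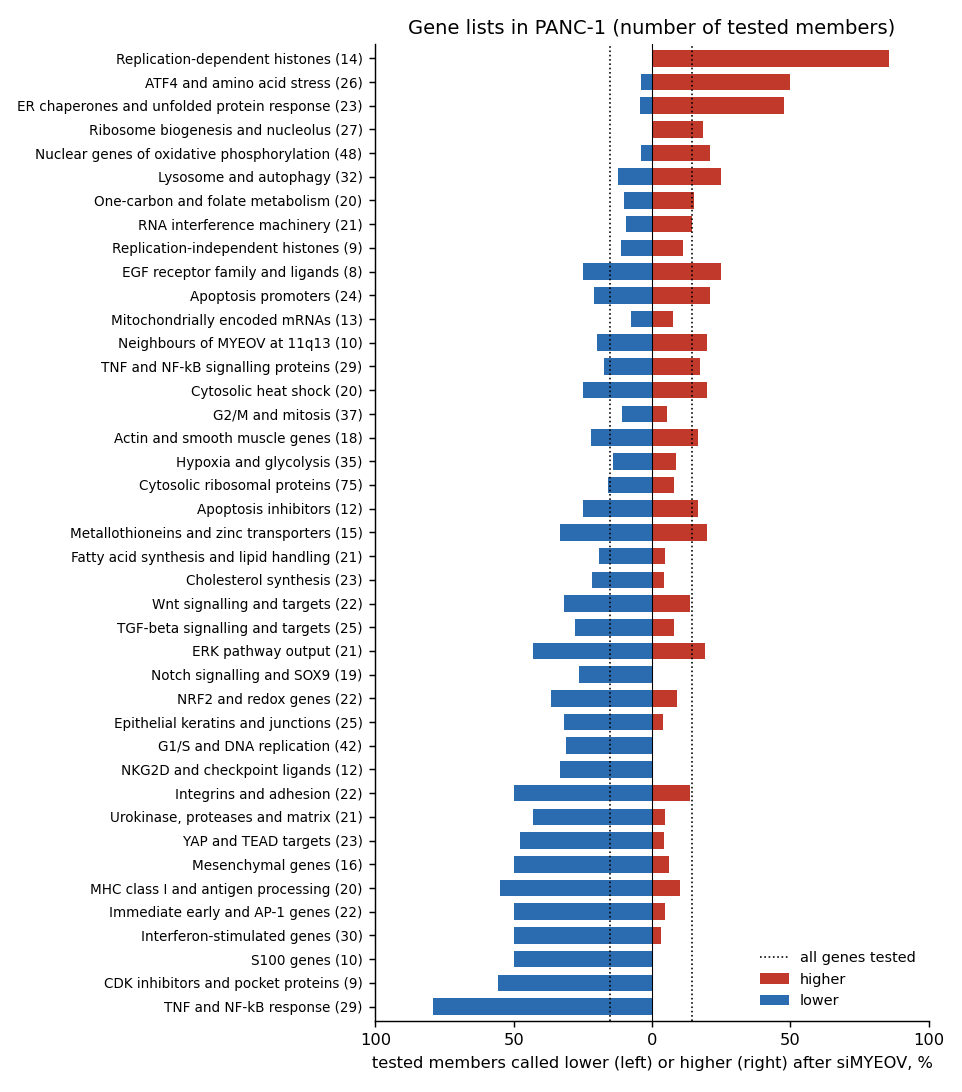
Share of the tested members of each gene list shown that were called lower (blue, left) or higher (red, right) after siMYEOV in PANC-1. The number tested is in brackets, and dotted lines mark the 15.1% and 14.3% of all genes. Not all lists are drawn. The TNF and NF-kB response list has the largest balance of lower over higher members and the replication-dependent histones that of higher over lower.

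Of 42 tested genes of G1/S and DNA replication, 13 fell (31.0%, against 15.1% of all genes), 29 were not called and none rose (median -0.32). CCND1, the gene of cyclin D1 and a neighbor of MYEOV at 11q13, measured 127, 128 and 128 FPKM in the siControl libraries and 53.4, 54.7 and 53.02 FPKM in the siMYEOV libraries, a change of -1.23 ± 0.033 (adjusted p = 2.9e-11). MCM2, part of the replicative helicase, measured 33.6, 34.1 and 35.7 FPKM in the siControl libraries and 17.6, 17.9 and 17.6 FPKM in the siMYEOV libraries, a change of -0.92 ± 0.043. E2F2 changed by -1.005 ± 0.060 and UHRF1, which maintains DNA methylation at replication, by -0.93 ± 0.069. Of 37 tested genes of G2/M and mitosis, 4 fell and 2 rose (median -0.18), shares below those of all genes. ZW10, of the kinetochore, rose by 1.25 ± 0.053, and BIRC5, the gene of survivin, by 0.83 ± 0.26. The BIRC5 rise was not called without siMYEOV replicate 3 (0.60, adjusted p = 0.066). NUF2 and NEK2, both of mitosis, changed by -0.82 ± 0.10 and -0.67 ± 0.049.

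Of 9 tested CDK inhibitors and pocket proteins, 5 fell (55.6%, against 15.1% of all genes) and none rose. CDKN1A, the gene of p21, measured 48.1, 52.3 and 48.4 FPKM in the siControl libraries and 20.98, 22.9 and 20.996 FPKM in the siMYEOV libraries, a change of -1.16 ± 0.28 (adjusted p = 0.0031). RB1 changed by -0.61 ± 0.052, RBL2 by -0.62 ± 0.047 and CDKN1C by -0.57 ± 0.14. The CDKN1C change was below the threshold of 0.5 without siControl replicate 1 (-0.47). With siS100A16, 5 of these 9 were also lower and none higher than with siControl (median -0.65), where 8.94% of all genes were lower. The counts were 2 and 2 with siDDX60L, and none and 2 with siKCNN4 (7.34% and 12.9% of all genes lower). CD82 and PHLDA3 are not members of this list. CD82, a tetraspanin, measured 16.3, 16.7 and 16.3 FPKM in the siControl libraries and 2.39, 2.48 and 2.43 FPKM in the siMYEOV libraries, a change of -2.34 ± 0.061 (adjusted p = 2.0e-11). PHLDA3, an inhibitor of AKT, changed by -1.28 ± 0.11. The study names the cell cycle among terms lowered by siMYEOV in these libraries, so the cell cycle lists are not independent evidence.

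Of 22 immediate early and AP-1 genes, 11 fell (50%, against 15.1% of all genes) and 1 rose (median -0.59). JUNB changed by -1.03 ± 0.071 and NR4A1, a nuclear receptor, by -1.11 ± 0.12. MYC measured 11.6, 22.7 and 10.6 FPKM in the siControl libraries and 3.87, 4.15 and 2.54 FPKM in the siMYEOV libraries, a change of -1.76 ± 0.54 (adjusted p = 0.013). The groups did not overlap, but siControl replicate 2 stood above the other siControl libraries, and without it the change was -1.44 with an adjusted p of 0.058. KLF6, a zinc finger factor, rose from 33.2, 31.5 and 32.4 FPKM to 77.6, 78.7 and 77.2 FPKM, a change of 1.24 ± 0.040 (adjusted p = 1.4e-10).

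The mRNAs of replication-dependent histone genes normally end in a stem-loop without a poly(A) tail. Of 38 in the list, 14 passed the filter, 12 of them rose (85.7%, against 14.3% of all genes) and none fell, and the 2 others had changes above 0. The median change of the 14 was 1.24. Members could pass the filter through the siMYEOV libraries, in which 16 to 20 of the 38 reached 1 FPKM against 10 to 11 in siControl, and 4 of the 14 averaged under 1 FPKM with siControl. The share that rose is therefore a description and no support. HIST1H1C, a linker histone gene at chr6:26055968-26056698, minus strand in GRCh37, measured 4.34, 5.77 and 6.20 FPKM in the siControl libraries and 27.04, 26.7 and 21.8 FPKM in the siMYEOV libraries. The siMYEOV libraries stood well above the siControl libraries, with a change of 2.03 ± 0.15 (adjusted p = 1.0e-07). HIST1H2BD measured 2.27, 2.30 and 2.19 FPKM in the siControl libraries and 11.8, 11.3 and 11.7 FPKM in the siMYEOV libraries, a change of 1.95 ± 0.11. HIST1H2BK, the most abundant of those named, measured 42.004, 43.5 and 43.1 FPKM in the siControl libraries and 128, 144 and 158 FPKM in the siMYEOV libraries, a change of 1.71 ± 0.069 (adjusted p = 7.2e-10). HIST1H2BJ changed by 1.64 ± 0.21. Members of this family share sequence, and HIST2H2AA3 (1.33 ± 0.17) and HIST2H2AA4 (1.27 ± 0.16) are near-identical copies, so the values of single histone genes are uncertain. With genes of at least 5 FPKM on average only, 5 members still in the list rose.

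ATF4 is a transcription factor made when amino acids run short or the endoplasmic reticulum (ER) is stressed. Of 26 tested genes of its branch of the stress response, 13 rose (50%, against 14.3% of all genes), 1 fell and 12 were not called (median 0.53). Against the same siControl libraries, siDDX60L also gave 13 higher and 1 lower of these 26 (median 0.50), with 10.2% of all genes higher. The siKCNN4 libraries gave 4 higher and 11 lower, and the siS100A16 libraries 6 and 3 (13.8% and 16.5% of all genes higher). The values below are those of siMYEOV. TRIB3, a pseudokinase, measured 12.4, 11.9 and 11.1 FPKM in the siControl libraries and 59.4, 54.8 and 56.4 FPKM in the siMYEOV libraries, a change of 2.18 ± 0.12 (adjusted p = 1.3e-08). DDIT3, the gene of CHOP, measured 24.1, 25.1 and 18.1 FPKM in the siControl libraries and 75.9, 78.2 and 69.4 FPKM in the siMYEOV libraries, a change of 1.70 ± 0.11 (adjusted p = 3.8e-08). PCK2, a mitochondrial carboxykinase, changed by 1.38 ± 0.073, and ASNS, asparagine synthetase, by 1.05 ± 0.049. No group overlapped with the other for these 4 genes. Of 23 tested ER chaperones and unfolded protein response genes, 11 rose (47.8%) and 1 fell (median 0.47). With siKCNN4, 6 of these 23 were higher and 1 lower than with siControl (median 0.37), where 13.8% of all genes were higher. The counts were 1 and 1 with siDDX60L, and none and 2 with siS100A16 (10.2% and 16.5% of all genes higher). HSPA5, which encodes the ER chaperone BiP, measured 167, 169 and 167 FPKM in the siControl libraries and 373, 372 and 373 FPKM in the siMYEOV libraries, a change of 1.15 ± 0.029 (adjusted p = 1.7e-11). SEL1L, of ER-associated degradation, changed by 0.84 ± 0.064, SDF2L1 by 0.70 ± 0.081 and HERPUD1 by 0.68 ± 0.17.

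Several single genes led the rises. MKNK2 encodes MNK2, a kinase that phosphorylates the translation factor eIF4E. MKNK2 measured 35.5, 39.9 and 34.2 FPKM in the siControl libraries and 168, 165 and 218 FPKM in the siMYEOV libraries, a change of 2.29 ± 0.11 (adjusted p = 2.9e-09). FAM3C, a secreted protein also called ILEI, measured 35.7, 34.95 and 34.1 FPKM in the siControl libraries and 159, 160.3 and 154 FPKM in the siMYEOV libraries, a change of 2.14 ± 0.044 (adjusted p = 6.5e-12). GNPDA1, a glucosamine-phosphate deaminase, measured 15.5, 16.2 and 14.96 FPKM in the siControl libraries and 65.1, 70.9 and 76.8 FPKM in the siMYEOV libraries, a change of 2.12 ± 0.085. CES1, a carboxylesterase, measured 43.3, 46.7 and 41.4 FPKM in the siControl libraries and 163, 161 and 174 FPKM in the siMYEOV libraries, a change of 1.90 ± 0.065. Each of the 4 had siMYEOV values at least 3-fold above its highest siControl value. GANAB, of glycoprotein folding, changed by 1.68 ± 0.15, SGK494 by 1.91 ± 0.13 and TREX2, an exonuclease, by 2.17 ± 0.54 (adjusted p = 0.0039). MT1E, a zinc-binding metallothionein, measured 42.4, 44.9 and 41.5 FPKM in the siControl libraries and 157, 188 and 202 FPKM in the siMYEOV libraries, a change of 2.05 ± 0.081. MTF1, the factor that activates metallothionein genes, changed by 1.33 ± 0.054. Metallothionein genes are close copies of each other, so MT1E is uncertain as a single gene. In the list of 15 tested metallothioneins and zinc transporters, 3 rose and 5 fell (20% and 33.3%, against 14.3% and 15.1% of all genes).

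Ligands and receptors of the EGF family went in different directions. AREG, the gene of amphiregulin, measured 2.18, 1.91 and 2.28 FPKM in the siControl libraries and 10.8, 11.1 and 10.98 FPKM in the siMYEOV libraries, a change of 1.94 ± 0.11 (adjusted p = 1.1e-08). EREG, the gene of epiregulin, measured 3.34, 3.20 and 3.53 FPKM in the siControl libraries and 12.1, 13.1 and 12.3 FPKM in the siMYEOV libraries, a change of 1.63 ± 0.057 (adjusted p = 1.9e-10). EGFR, their receptor, changed by -0.61 ± 0.038 and ERBB3 by -0.67 ± 0.14. Of 8 tested members of the family, 2 rose and 2 fell, and these were the 2 ligands and the 2 receptors named. Among 21 genes that report ERK activity, 9 fell and 4 rose (42.9% and 19.0%, against 15.1% and 14.3% of all genes), AREG and EREG being 2 of the 4.

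Shares in the metabolic and ribosomal lists are to be read against the 15.1% of all genes that fell and the 14.3% that rose. Of 22 NRF2 and redox genes, 8 fell and 2 rose (36.4% and 9.09%, median -0.36), with 1 rise without siMYEOV replicate 3 or siControl replicate 1. AKR1B1, aldose reductase, measured 41.9, 46.1 and 48.7 FPKM in the siControl libraries and 12.4, 13.2 and 11.6 FPKM in the siMYEOV libraries, a change of -1.80 ± 0.072. TKT, the transketolase of the pentose phosphate pathway, changed by -1.36 ± 0.049 and GSR, glutathione reductase, by -1.55 ± 0.13. With siS100A16, 16 of these 22 were lower and none higher than with siControl (median -0.82), where 8.94% of all genes were lower. The counts were 3 and 1 with siDDX60L, and 4 and 1 with siKCNN4 (7.34% and 12.9% of all genes lower). Of 23 cholesterol synthesis genes, 5 fell and 1 rose (21.7% and 4.35%), with a median of 0.04. Without siMYEOV replicate 1, 3 fell, and without siMYEOV replicate 2, siControl replicate 1 or siControl replicate 2, 2 rose. MSMO1, a sterol oxidase, changed by -1.67 ± 0.061 and STARD4, a sterol transporter, by -1.22 ± 0.092, while PMVK, phosphomevalonate kinase, rose by 0.81 ± 0.054. Of 48 nuclear genes of oxidative phosphorylation, 10 rose and 2 fell (20.8% and 4.17%, median 0.23), with 1 fall without siMYEOV replicate 1. NDUFA8 rose by 1.01 ± 0.052 and ATP5PB by 0.99 ± 0.053, and COX6A1 fell by 1.35 ± 0.076. Of 27 ribosome biogenesis genes, 5 rose (18.5%, near the share of all genes) and none fell (median 0.34), the rises including DKC1 (0.71 ± 0.053), POLR1B (0.66 ± 0.056), NOLC1 (0.65 ± 0.13) and UTP20 (0.55 ± 0.060). In that list 22 of 27 genes had all siMYEOV libraries above all siControl libraries, against 34.9% of all genes. With siS100A16, 15 of these 27 were higher and none lower than with siControl (median 0.50), where 16.5% of all genes were higher. The counts were 1 higher and 2 lower with siDDX60L, and none and 15 with siKCNN4 (10.2% and 13.8% of all genes higher). Among 75 cytosolic ribosomal protein genes there were 12 falls and 6 rises, a share of falls near that of all genes and a share of rises below it.

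The remaining large falls named by the selection rule were CEND1, NRGN and some uncertain entries. CEND1, linked to cell cycle exit in neurons, measured 26.2, 26.6 and 23.3 FPKM in the siControl libraries and 2.93, 2.83 and 2.81 FPKM in the siMYEOV libraries, a change of -2.77 ± 0.095 (adjusted p = 1.9e-10). NRGN, the gene of neurogranin, measured 6.33, 7.12 and 6.75 FPKM in the siControl libraries and 0.460, 0.600 and 0.729 FPKM in the siMYEOV libraries, a change of -2.28 ± 0.11. RPL17-C18orf32, a readthrough transcript, measured 4.08, 1.96 and 10.4 FPKM in the siControl libraries and 0, 0 and 0 FPKM in the siMYEOV libraries. AC138811.2 measured 17.9, 12.9 and 3.89 FPKM in the siControl libraries and 0, 0.696 and 0 FPKM in the siMYEOV libraries, and AC093668.3 measured 5.87, 15.7 and 6.94 FPKM in the siControl libraries and 1.22, 0.486 and 1.26 FPKM in the siMYEOV libraries. Their siControl values spread widely within the group, so all 3 are uncertain. The call was lost without siControl replicate 3 for RPL17-C18orf32 (adjusted p = 0.087) and without siControl replicate 2 for AC093668.3 (adjusted p = 0.052). For AC138811.2 it was lost without any single library other than siControl replicate 3, at adjusted p values from 0.051 to 0.10.

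The siMYEOV effect was then compared with that in MiaPaCa2, another PDAC line, where MYEOV was below 1 FPKM in siControl. The difference was tested as an interaction in limma over all 30 libraries, the change in PANC-1 less that in MiaPaCa2. Of 13304 genes tested, 780 were called with a higher value in PANC-1 (5.86%) and 1624 with a lower one (12.2%). With a median of ratios scaling the split was 1049 and 1326. KRT18 fell strongly in both lines. In MiaPaCa2 it went from 877 to 893 FPKM to 52.1 to 57.1 FPKM, and the difference between the lines was 0.55 ± 0.053 (adjusted p = 2.5e-08), which is a larger fall in MiaPaCa2. In the TNF and NF-kB response list, 20 of 27 genes tested in MiaPaCa2 fell and none rose, against 10.4% of all genes falling there (median -0.74). In the interaction, 16 of 32 members were lower in PANC-1 and 4 higher. NFKBIA had a difference of -0.72 ± 0.076 and BIRC3 of -0.78 ± 0.094. CXCL1 differed by -0.45 ± 0.067, below the threshold, and fell in MiaPaCa2 from 88.3 to 88.98 FPKM to 37.97 to 40.4 FPKM. CCL2 was at 0 to 0.0761 FPKM and CCL20 at 0 FPKM in the MiaPaCa2 siControl libraries, so their differences of -2.29 and -2.31 belong to genes near or at 0 in that line. The reverse held for IL1B and SLC6A12, which were below 1 FPKM in all PANC-1 siControl libraries. IL1B went from 7.88 to 9.36 FPKM to 0.954 to 1.23 FPKM in MiaPaCa2, and SLC6A12 from 10.7 to 13.4 FPKM to 0.732 to 1.16 FPKM.

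Some genes expressed in both lines moved in PANC-1 with little change or an opposite sign in MiaPaCa2. HSPA5 measured 156 to 171 FPKM in siControl and 173 to 180.3 FPKM in siMYEOV libraries of MiaPaCa2, and the difference between the lines was 1.03 ± 0.041 (adjusted p = 1.5e-14). EREG measured 64.2 to 73.5 FPKM and 47.6 to 50.97 FPKM in MiaPaCa2, which was not called, and the difference between the lines was 2.11 ± 0.076. ITGB5 and TKT changed by 0.23 and 0.26 there, neither called, and differed between the lines by -1.88 ± 0.11 and -1.63 ± 0.080. SOD2, MYC, C4orf48, TUBB3 and ATXN7 also had called differences, but their values spread widely among MiaPaCa2 libraries of the same group. SOD2, for example, lay at 6.06 to 14.4 FPKM there, and MYC at 4.98 to 34.2 FPKM. In PANC-1, the ATXN7 rise (1.10 ± 0.40) was itself not called without siMYEOV replicate 2 (adjusted p = 0.093) or 3 (0.0504) or without siControl replicate 2 (0.14) or 3 (0.070). Of 20 replication-dependent histone genes in the interaction, 12 were lower in PANC-1 and none higher. Of 20 tested in MiaPaCa2 16 rose, against 16.3% of all genes tested there. Members could pass the filter through the libraries in which they were high, so these histone counts are a description and no support. HIST1H2BK went from 17.2 to 19.2 FPKM to 192 to 217 FPKM in MiaPaCa2, a difference between the lines of -1.72 ± 0.11 (adjusted p = 4.5e-11). PLAU and CDKN1A fell more in MiaPaCa2 as well, with differences of 1.38 ± 0.074 and 1.08 ± 0.32. Interferon-stimulated genes showed the contrary, with 16 of 31 lower in PANC-1 and none higher in the interaction.

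The siMYEOV libraries were also compared with the 9 libraries of the other siRNAs in PANC-1, which leaves siControl out of the contrast. Of 12513 genes, 910 were higher (7.27%) and 1729 lower (13.8%) with siMYEOV than with the mean of siDDX60L, siKCNN4 and siS100A16. PODXL, which encodes the sialomucin podocalyxin, had the most negative contrast of the genes named here. It measured 1.999 to 2.19 FPKM with siMYEOV, 7.95 to 9.22 FPKM with siControl, 7.17 to 7.69 FPKM with siDDX60L, 44.1 to 47.05 FPKM with siKCNN4 and 23.05 to 23.7 FPKM with siS100A16. Its contrast was -2.76 ± 0.044 (adjusted p = 3.2e-13). The siKCNN4 and siS100A16 values lay above those of siControl, so the contrast exceeds the -1.62 seen against siControl. KRT18 measured 327 to 354 FPKM with siDDX60L, 391 to 404 FPKM with siKCNN4 and 803 to 819.9 FPKM with siS100A16, so siMYEOV gave the lowest values, with a contrast of -2.36 ± 0.032. TMEM245, a membrane protein gene, measured 4.71 to 5.0004 FPKM with siMYEOV and lay between 20.7 and 25.8 FPKM in all 12 other libraries, a contrast of -2.04 ± 0.047 (adjusted p = 8.4e-12). TMEM14A (-2.004 ± 0.044), AHNAK2 (-1.90 ± 0.074), CYB5R2 (-1.88 ± 0.070) and CACNA1G (-1.83 ± 0.041) were likewise lower with siMYEOV.

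Other changes were close to those seen with the remaining siRNAs. CCL2 measured 48.4 to 53.4 FPKM with siDDX60L, 54.4 to 56.6 FPKM with siKCNN4 and 61.1 to 63.8 FPKM with siS100A16, near the 41.4 to 45.6 FPKM of siMYEOV and far below the 214 to 226 FPKM of siControl. Its contrast with the other siRNAs was -0.34 ± 0.039, below the threshold of 0.5. KRT8 (-0.33 ± 0.089), CCND1 (-0.38 ± 0.027) and MICB (-0.29 ± 0.032) were below it as well, and AREG was at 0.06 ± 0.088. CTGF and CDH1 were at 0.01 ± 0.044 and 0.01 ± 0.062. CXCL1, by contrast, was lower with siMYEOV than with each of the others, at 14.4 to 16.1 FPKM with siDDX60L, 19.9 to 22.03 FPKM with siKCNN4 and 38.2 to 40.3 FPKM with siS100A16, a contrast of -1.82 ± 0.050 (adjusted p = 3.7e-11). In the TNF and NF-kB response list, 15 of 29 were lower in this contrast and none higher, with a median of -0.56. Against siControl, whose libraries these comparisons share, members of that list were lower with the other siRNAs too. With siDDX60L 20 of 29 were lower (against 7.34% of all genes) and none higher, with siKCNN4 20 were lower (12.9%) and 3 higher, and with siS100A16 12 were lower (8.94%) and 4 higher. The medians were -0.93, -0.98 and -0.36, against -1.61 with siMYEOV. Among genes of G1/S and DNA replication, 27 of 42 were lower and none higher, with a median of -0.58. Part of that contrast lies in the other siRNAs. Against siControl, 13 of the 42 were higher and 2 lower with siDDX60L, 9 and 5 with siKCNN4 and 6 and 3 with siS100A16 (against 10.2%, 13.8% and 16.5% of all genes higher), while 13 were lower with siMYEOV. Of the 14 replication-dependent histone genes, 12 were higher and none lower, against 7.27% of all genes higher. Members could pass the filter through the siMYEOV libraries, so this count too is a description and no support. HSPA5 was higher with siMYEOV by 1.17 ± 0.024, MKNK2 by 1.62 ± 0.089 and MT1E by 1.56 ± 0.067. ARL2-SNX15, a readthrough entry, and AC104109.3 had positive contrasts with values that split within groups. AC104109.3 stood at 97.9, 0.934 and 0.786 FPKM in the siControl libraries, so both are uncertain. The rise of ARL2-SNX15 against siControl (1.64 ± 0.61) was not called without any single library other than siMYEOV replicate 1 or siControl replicate 3, at adjusted p values from 0.058 to 0.16. AC104109.3 was not called against siControl, but was without siControl replicate 1 (5.53, adjusted p = 0.017).

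The seed of the siMYEOV-3 guide was compared with the changes. The 7-base site AAGTTCA, which pairs with guide bases 2 to 8, was searched on the sense strand of the 3′ UTR of the longest coding transcript of each gene in a GRCh37 annotation. A 3′ UTR was found for 11493 of the 12513 genes tested, and 1644 of them (14.3%) held at least 1 site. Of genes without a site 14.5% fell and 15.3% rose. Of genes with 1 site 22.5% fell and 7.16% rose, and of the 317 genes with 2 or more sites 25.6% fell and 5.05% rose. The median changes of these classes were 0.06, -0.09 and -0.17. Read the other way, 21.0% of genes that fell and 6.88% of genes that rose held a site. Long UTRs hold more sites, so the classes were split by UTR length. In the shortest of 3 equal classes 33.3% of 111 genes with a site fell against 14.9% of those without, in the middle class 27.1% against 15.5%, and in the longest class 20.9% against 12.9%. In MiaPaCa2, 22.9% of genes with a site and 8.68% of genes without fell after siMYEOV. For comparison, the shares of falls with and without a site of the passenger strand were 16.7% and 15.6% in PANC-1, and those for the seed of the siDDX60L guide were 19.4% and 15.7%. With the siMYEOV guide sites but the other siRNAs of PANC-1, falls made up 6.33% and 7.77% of genes with and without a site for siDDX60L, 10.2% and 13.7% for siKCNN4 and 9.002% and 9.40% for siS100A16. These comparisons share siControl libraries, and no test was made.

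**Figure D5:**
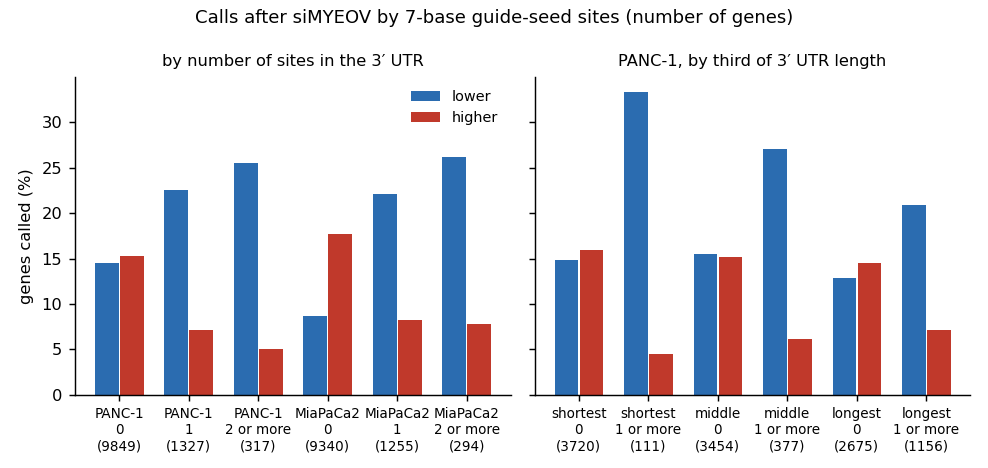
Percent of genes called lower (blue) or higher (red) after siMYEOV by the number of guide-seed sites in the 3′ UTR, in PANC-1 and MiaPaCa2 (left), and in PANC-1 within 3 classes of 3′ UTR length (right), with the number of genes in brackets. Falls are more frequent among genes with a site in each class, as with 25.6% against 14.5% for 2 or more sites against none in PANC-1, and rises are less frequent.

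Windows around sites are shown for MYEOV and for genes with large falls named above, 5′ to 3′ along the mRNA in GRCh37 coordinates, with the site in capitals.
MYEOV, chr11:69064188-69064210, plus strand: ggacacgcAAGTTCAgctccagc
NFKBIA, chr14:35871381-35871403, minus strand: agcctgtaAAGTTCAttatattt
TMEM245 (first of 2 sites), chr9:111782695-111782717, minus strand: tttctaggAAGTTCAaatttgac
S100A4, chr1:153516110-153516132, minus strand: tgctgagcAAGTTCAataaagat
CYB5R2, chr11:7686538-7686560, minus strand: ttcagagtAAGTTCAatttcacc
TMEM14A, chr6:52550862-52550884, plus strand: agaaaactAAGTTCAtgtcatcc
ITGAV, chr2:187542180-187542202, plus strand: ttataaatAAGTTCAgacataca
PODXL, chr7:131186126-131186148, minus strand: tgaagaacAAGTTCAaactgata
TMEM245, TMEM14A, CYB5R2 and PODXL were also lower against the other siRNAs, as were KRT18 and AHNAK2, which held no site in the 3′ UTR (AHNAK2 held 43 along the whole transcript). Beyond those shown, MSMO1, RB1 and RBL2 fell and held a site. KRT18, EBI3, CEND1, CCL2, CCL20, CXCL1 and CXCL2 held none in the 3′ UTR, and none anywhere along the transcript. In the TNF and NF-kB response list, 3 of 28 members with a 3′ UTR held a site, and 1 of these, NFKBIA, was among the 22 that fell. None of 12 histone genes with a 3′ UTR held a site. POLR1B and ATXN7 rose with a site in the UTR, so a match did not go with a fall in each gene. A match to the whole target with at most 2 differences was found in the MYEOV transcript and, with 2, in that of FCHO1, which changed by -1.72 (adjusted p = 1.6e-07) and is named after its value was seen. Whether the seed accounts for any single fall was not tested.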

How the data were processed

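RNA-seq was done on PANC-1 and MiaPaCa2 cells after siRNA transfection. The labels give Trizol extraction and the Illumina TruSeq RNA kit, which differ from the kits in the published methods, where libraries were stranded. Per the submitters' processing notes, reads were aligned with TopHat2 2.0.12 to GRCh37. The values are FPKM, deposited by the authors as 1 table of 24895 entries for 30 libraries. The program behind them is not given in the sources used here, and whole reads could not be recovered from them, so the depth of each library is unknown.

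Values were taken as log2(FPKM + 1) and tested with limma 3.58.1 (R 4.3.3) with a mean-variance trend. Contrasts within PANC-1 were fitted on its 15 libraries over 12513 genes averaging 1 FPKM or more, with Benjamini-Hochberg adjustment over all of them. Tables were handled in Python 3.11.15 with pandas 2.3.3. The test was checked on simulated data. Alternatives were another pseudocount, filter, scaling, fold threshold and set of libraries, a replicate block, no trend, and each library left out.

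The genes named were the targets, CXCL1 to CXCL3, the 15 genes raised most and the 15 lowered most among those called, up to 4 called members per list with the largest change, and the 8 most positive and 8 most negative called genes of the contrasts between lines and between siRNAs. Not all of them are described, and some are not reported here. Members and lists were chosen with earlier results of these data known. Lists are described by counts and medians without a test.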

Additional observations from a re-analysis of the deposited data

Results flagged for a closer look

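Of the 126 genes named in the report, 81 had a siMYEOV effect that differed between PANC-1 and MiaPaCa2. The difference was tested as an interaction in limma (adjusted p below 0.05 and an absolute value of at least 0.5), and each value below is the change in PANC-1 less that in MiaPaCa2 on the log2(FPKM + 1) scale. It was more negative in PANC-1 for 52 genes and more positive for 29. The groups of 3 libraries are too small for the search for single outlying libraries. The causes of these differences were not tested. The lines also differ in their siControl levels, and a gene near 0 in a line can fall only little there on this scale.

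For 18 of the 81 genes the MiaPaCa2 siControl mean was below 1 FPKM, among them HLA-F (-2.85), CCL20 (-2.31), CCL2 (-2.29), CD74 (-2.19), CACNA1G (-2.04), CYB5R2 (-1.74) and KRT7 (-1.27). Further genes of this kind were NR4A1 (-1.23), STARD4 (-1.22), CDH1 (-1.17), FOXC2 (-1.12), RAET1G (-0.83), HIST1H2BD (-0.77) and CA2 (-0.69). The remaining ones were HIST1H2BJ (-0.68), MYEOV (-0.57), IGFBP3 (1.29) and CES1 (1.90). MYEOV did fall in MiaPaCa2, from 0.691 to 0.985 FPKM to 0.155 to 0.190 FPKM, and this scale understates changes at such levels. Its difference therefore does not show a stronger knockdown in PANC-1. HIST1H2BD and HIST1H2BJ rose in both lines, by 2.72 and 2.32 in MiaPaCa2 and by 1.95 and 1.64 in PANC-1.

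Among genes above 1 FPKM in both siControl groups or in MiaPaCa2, the most negative differences were those of AC093668.3 (-4.40), MYC (-3.29), SOD2 (-2.74), C4orf48 (-2.41), CEND1 (-2.25), EBI3 (-2.25) and ITGB5 (-1.88). Next in size came NRGN (-1.75), HIST1H2BK (-1.72), TKT (-1.63), IL32 (-1.29), TNFRSF1B (-1.24), BCAM (-1.18) and NUAK2 (-1.17). Smaller negative differences were found for AKR1B1 (-1.02), OAS3 (-1.0), IFIH1 (-0.97), HLA-B (-0.87), CYLD (-0.86), CTGF (-0.82) and BIRC3 (-0.78). These were followed by E2F2 (-0.75), NFKBIA (-0.72), CD82 (-0.71), PARP14 (-0.71), UBE2L6 (-0.71), CDKN1C (-0.70) and HIST1H1C (-0.70). Below these in size stood IER3 (-0.66), CXCL2 (-0.64), ERAP1 (-0.61), PSMB9 (-0.60), HIST2H2AA4 (-0.59), PHLDA3 (-0.58), HIST2H2AA3 (-0.53) and KRT8 (-0.51). Of these genes, EBI3 and CDKN1C averaged under 1 FPKM over the MiaPaCa2 libraries and were not tested within that line. Their room to fall there was therefore limited on this scale.

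The most positive differences were those of ARL2-SNX15 (2.64), TUBB3 (2.43), IL1B (2.29), ATXN7 (2.24), SLC6A12 (2.18), EREG (2.11) and TREX2 (1.64). They were followed by PLAU (1.38), AREG (1.34), SGK494 (1.31), MT1E (1.29), FAM3C (1.22), KLF6 (1.18) and CDKN1A (1.08). Intermediate positive values belonged to HSPA5 (1.03), TRIB3 (1.01), MKNK2 (0.95), AHNAK2 (0.77), CCND1 (0.70), PCK2 (0.70) and GNPDA1 (0.69). The remaining positive values were those of DDIT3 (0.64), S100A16 (0.63), TMEM14A (0.61), POLR1B (0.57), KRT18 (0.55) and S100A4 (0.51).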

How the results depend on the processing

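MYEOV stayed lower and called under every alternative run. Of 122 named genes tested in PANC-1, 111 kept their direction and side of the threshold under every alternative, and those that lost or gained a call were MYD88, AC138811.2, AC093668.3, RPL17-C18orf32, CDKN1C, BIRC5, MYC, ARL2-SNX15, ATXN7 and AC104109.3. KCNN4, never called, changed sign without siMYEOV replicate 1, with a range of -0.034 to 0.109 on leaving out each library. Against siControl, 258 genes were higher and 540 lower at an absolute log2 change of at least 1. With a mean of at least 5 FPKM, fewer genes entered and 1218 were lower against siControl, 1031 lower in PANC-1 in the difference between lines and 1071 lower against the other siRNAs. Leaving out each library gave 1741 to 1798 higher and 1861 to 1883 lower genes against siControl, 739 to 798 and 1585 to 1644 between lines, and 893 to 924 and 1700 to 1769 against the other siRNAs. Median of ratios scaling gave 1584 higher and 2063 lower genes against siControl, and moved the split between lines from 780 and 1624 to 1049 and 1326. The cause was not tested. With the replicate number as a block, the counts were 1790 and 1885, 774 and 1625, and 910 and 1728, and no named gene changed its call. Same-numbered siControl and siMYEOV libraries had correlations of deviations of 0.064 to 0.076, below 0.1, so they were not treated as pairs, although each correlated best with its own number. FPKM carry no depth, so genes near 1 FPKM are the least certain.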
